A study of Oryctolagus cuniculus with 6 samples.

Results

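The genes described here encode cytosolic ribosomal proteins in the rabbit late blastocyst. They were taken as the array's non-control probes whose description holds the words "ribosomal protein" and neither "mitochondrial" nor "kinase", with 1 probe kept for each gene, the one with the highest mean intensity over the 6 arrays. That rule found 69 of the array's 43603 non-control probes, which belong to 21 genes. All 69 were among the 30759 probes tested, those whose signal the scanner software rated well above background in 3 or more of the 12 measurements (6 arrays in 2 dyes). Gene names were available for 10357 genes of the array. Checked against the label, 19 of the 21 are parts of the mature ribosome, 12 in the large (60S) subunit and 7 in the small (40S) subunit. The others, RSL24D1 (called L24-like in the files) and RPL7L1, act in the building of the large subunit and are not parts of the finished particle.

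Embryos of the New Zealand White strain were all collected as blastocysts at 6 days of age. One group had been vitrified (an ultrarapid cooling in which the medium turns to glass, here in dimethyl sulphoxide and ethylene glycol) and another slow-frozen in dimethyl sulphoxide with controlled cooling. Both were thawed and transferred into recipient females before collection. The third group was untreated and developed in vivo, so thawing, washing and transfer go together with the cooling method in each comparison with it. Each treatment was hybridised on 3 arrays carrying 2 dyes, 1 array for each biological replicate, with a treated and an untreated RNA extract side by side. Treated RNA was labelled with Cy5 (red) on replicates 1 and 3 and with Cy3 (green) on replicate 2. By their labels the vitrified and the frozen array of a replicate number carry the same untreated extract, so the comparisons of vitrified and of frozen with untreated share their controls. How many embryos made up an extract is not given in the sources used here. Whole embryos were measured, so a change in the share of a cell type and a change in RNA per cell cannot be told apart.

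Ribosomal proteins are made in the cytoplasm, imported into the nucleolus and assembled with ribosomal RNA into the small subunit, which decodes the message, and the large subunit, which joins the amino acids. Their mRNAs are among the most abundant of any growing cell and mostly begin with a terminal oligopyrimidine tract, through which mTOR and LARP1 control their translation together. Because that control acts on translation, mRNA levels report only on the amount of transcript. Early embryos start out with ribosomes from the oocyte and make their own after genome activation, and the blastocyst expands on newly made ribosomes.

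The array reads each gene through 60-base probes, and the sequences below are the probes on which the results turn, shown 5′ to 3′ as the files hold them. Coordinates are those of the array's own annotation, whose genome build is not given in the sources used here. FAU, a 40S gene, had a fitted log2 fold change above 0.5 in vitrified embryos, and its probe lies at the start of the part that encodes S30, with 55 of its bases mapped. RPL36-like had the highest value among the 60S genes, RPS9 stood higher in all 3 vitrified arrays than in any frozen one, and RSL24D1 had the lowest value in both treatments. The RPS9 probe has no mapped position in the files. No base is singled out in these.
FAU, chr1:70445045-70445099, minus strand: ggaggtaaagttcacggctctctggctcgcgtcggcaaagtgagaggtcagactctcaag
RPL36-like, chr2:99221685-99221744, minus strand: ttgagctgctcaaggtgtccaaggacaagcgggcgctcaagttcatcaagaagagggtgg
RPS9: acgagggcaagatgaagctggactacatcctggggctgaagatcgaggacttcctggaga
RSL24D1, chr17:17349190-17349249, plus strand: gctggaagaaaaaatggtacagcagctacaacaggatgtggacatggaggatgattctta

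RPL10 is shown because the array carries it in 2 versions that differ at 1 base. Over the 54 bases that both probes cover, the difference is A49G, counted from 1 at the 5′ end of the first probe and marked by the capital in each. Each version is read by 5 probes with neighbouring starts.
RPL10, chr7:123221416-123221475, minus strand: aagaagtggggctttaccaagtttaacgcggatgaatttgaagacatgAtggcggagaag
RPL10, chr7:123221422-123221481, minus strand: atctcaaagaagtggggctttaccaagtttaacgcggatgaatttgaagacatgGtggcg

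RPL23 (called L17 in the files) and RPLP1 are shown because they carried large dye terms, given further on. RPL23 is read at 2 places, a coding stretch that the annotation spreads over 158 bases of the genome and a stretch around the stop codon. Of the latter probe the 39 bases up to and including the stop codon, in capitals, are printed. The RPLP1 probe has no mapped position and also ends at its stop codon, in capitals.
RPL23, coding, chr19:40300686-40300843, minus strand: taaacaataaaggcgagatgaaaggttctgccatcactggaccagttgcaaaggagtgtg
RPL23, stop codon, part of chr19:40300618-40300677, minus strand: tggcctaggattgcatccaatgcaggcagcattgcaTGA
RPLP1: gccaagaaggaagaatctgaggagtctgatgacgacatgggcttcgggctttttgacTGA

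The ribosomal protein probes were among the brightest on the arrays. Of the 21 genes, 19 were brighter than 90 percent of all tested probes, all 21 stood above background in 12 of 12 measurements, and none had a saturated spot. The exceptions in brightness were RPL7 and RPL7L1, with mean log2 intensities of 9.98 and 10.07, brighter than 71.8% and 72.9% of tested probes. Levels of different probes are not comparable as amounts of RNA. As for the embryos themselves, 8 of the 9 trophectoderm markers on the array and 4 of the 5 inner cell mass markers stood above background in all 6 untreated measurements, with KRT8, GATA3 and POU5F1 among them and the trophectoderm factor ELF5 in none.

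No cytosolic ribosomal protein gene passed the test in vitrified embryos. limma's moderated test with a dye term, adjusted by the Benjamini-Hochberg method over all tested probes, called 0 of 21 at an adjusted p of 0.05, where 0.0195% of all tested probes were called. The values of the genes were small and leaned above 0. Their median log2 fold change was 0.18, and 14 of 21 lay above 0, against a median of 0.01 and 51.3% above 0 for all tested probes. At an unadjusted p under 0.05 there were 7 of 21, all of them above 0, where the share of all tested probes was 17.4%. Of the 363 tested probes at least as bright as the median of the 21 genes, 113 had such a p. The 12 large subunit genes had a median of 0.18 with 9 above 0, the 7 small subunit genes a median of 0.27 with 5 above 0, and the 2 assembly factors lay below 0 with a median of -0.13. Without those 2, the 19 subunit genes had a median of 0.18 with 14 above 0. The median of the 21 was 0.094 without vitrified replicate 1, 0.31 without vitrified replicate 3, 0.083 with median centring in place of loess and 0.28 with no dye term.

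In slow-frozen embryos the values lay nearer to 0, and none passed the test. limma again called 0 of 21 at an adjusted p of 0.05, with 0.185% of all tested probes called, and 1 of 21 at an unadjusted p under 0.05, where the share of all tested probes was 13.2%. Their median log2 fold change was 0.04 with 13 of 21 above 0, against 51.7% of all tested probes. Of the 363 tested probes at least as bright as the median of the 21 genes, 264 lay above 0 in frozen embryos. In vitrified ones 177 of the 363 did. The median of the 21 genes was -0.01 with the scanner software's log ratio and -0.03, with 6 of 21 above 0, without frozen replicate 1. It was 0.10 without frozen replicate 2 and 0.083 without frozen replicate 3. No fitted value exceeded 0.5 in size, whereas 2 did so in vitrified embryos. With vitrified set against frozen directly, limma called 0 of 21, and 0% of all tested probes were called. Here 1 of 21 had an unadjusted p under 0.05, against 7.54% of all tested probes. The median difference was 0.15 with 15 of 21 higher in vitrified embryos, against 53.3% of all tested probes. It was 0.078 without vitrified replicate 1 and 0.28 without vitrified replicate 3, and 0.056 when the arrays were centred on their medians in place of loess.

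The 95% intervals of the fitted values reached 0.21 to 0.47 to either side in each treatment, with a median of 0.29, and 0.29 to 0.64 in the direct comparison, with a median of 0.39. On simulated data with these arrays' spread, the test called 5.37% of probes given a log2 change of 0.5 in vitrified embryos. In frozen ones it called 5.82%. Of probes given a change of 1 it called 83.7% and 82.4%. The simulated sets averaged 131.8 and 133 calls, where the real fits had 6 and 57. The cutoff on p was thus stricter in the real data, and the shares called there would be lower. A change of 0.5 or less in a single gene was therefore mostly not detectable with 3 arrays a treatment.

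**Figure D1:**
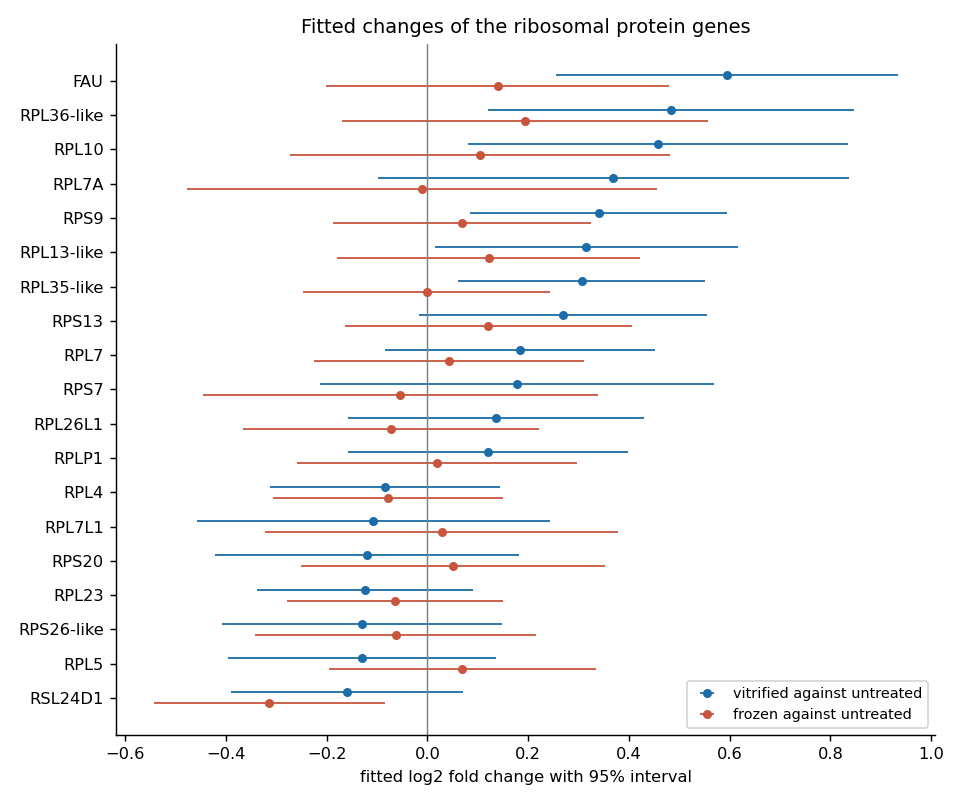
Fitted log2 fold changes of 19 of the 21 ribosomal protein genes (rows, ordered by the vitrified value) against untreated embryos, in vitrified (blue) and frozen (red) embryos, with bars for the 95% interval from limma. Vitrified values run from -0.16 to 0.59 and frozen ones from -0.31 to 0.19, and most bars cross 0.

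Among the small subunit genes, FAU encodes S30 fused to a ubiquitin-like protein, fubi, which is cut off before the S30 part joins the 40S subunit. Its log2 ratios of treated over untreated were 0.58, 1.01 and -0.11 on the vitrified arrays of replicates 1, 2 and 3, and its frozen ones were -0.14, 0.31 and -0.05. Replicates 1 and 2 of the vitrified embryos stood above all frozen arrays and replicate 3 did not. The fitted values were 0.59 (SE 0.15, n = 3, limma adjusted p 0.171) and 0.14 (SE 0.15, n = 3, limma adjusted p 0.755). A further FAU probe, which the rule does not take in because its description lacks the words, gave 0.61 and 0.08.

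RPS9, at the mRNA entry side of the 40S subunit, gave 0.41, 0.45 and 0.19 on the vitrified arrays and 0.19, -0.12 and 0.17 on the frozen ones. Its vitrified values lay above 0 on all 3 arrays and above every frozen value, although by a small margin over frozen replicate 1. The fitted values were 0.34 (SE 0.11, limma adjusted p 0.214) in vitrified embryos and 0.07 (SE 0.11) in frozen ones. A dimmer RPS9 probe outside the rule gave 0.40 and 0.09, with frozen arrays spread from -0.82 to 0.71. RPS13, a protein of the platform side, followed at 0.27 in vitrified and 0.12 in frozen embryos, each of its 5 probes between 0.26 and 0.28 in the former. RPS7, which takes part in 40S assembly, gave 0.18 and -0.05. Its vitrified value came mostly from replicate 1, at 0.81, against -0.07 and 0.10 on the other arrays.

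Fitted vitrified values below the untreated level were found for RPS20 and RPS26-like, both in the 40S subunit. RPS20, which sits in the head of the 40S subunit, had fitted values of -0.12 in vitrified and 0.05 in frozen embryos. Each sign turned in 2 alternatives, the vitrified value becoming 0.14 without vitrified replicate 2. RPS26-like, which lies where the mRNA leaves the subunit, gave -0.13 and -0.06. Of the 5 RPS26-like probes, 2 stood above background in all 12 measurements, at -0.13 each in vitrified embryos. The other 3 did so in only 5 or 6 of the 12 and ranged from -0.21 to 0.03.

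In the large subunit RPL36-like led, with vitrified ratios of 0.57, 0.76 and 0.03 and frozen ratios of 0.42, 0.12 and -0.06. The groups overlapped, with 2 of the vitrified arrays above every frozen one. Fitted values were 0.48 (SE 0.16, limma adjusted p 0.214) and 0.19 (SE 0.16), the latter the highest of the 21 genes in frozen embryos. RPL10, a late-joining protein near the peptidyl transferase centre, gave 0.84, 0.37 and 0.26 after vitrification and 0.55, -0.01 and -0.13 after freezing. All vitrified ratios were above 0, and frozen replicate 1 lay within their range. Its fitted values were 0.46 (SE 0.16, limma adjusted p 0.229) and 0.10 (SE 0.16). Its 2 sequence versions gave overlapping ranges. The 5 probes with A at the marked base ran from 0.37 to 0.47 in vitrified embryos and the 5 with G from 0.41 to 0.47.

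RPL7A, which binds ribosomal RNA in the large subunit, varied widely between arrays. Its ratios were 1.21, -0.04 and 0.54 on the vitrified arrays and 1.11, -0.80 and 0.27 on the frozen ones. Replicate 1 was the highest and replicate 2 the lowest in both treatments. The fitted values were 0.37 (SE 0.20, limma adjusted p 0.378) and -0.01 (SE 0.20). RPL13-like and RPL35-like, both in the large subunit, had vitrified values of 0.32 and 0.31 and frozen values of 0.12 and -0.0015. RPL35-like lay above 0 on all 3 vitrified arrays, at 0.67, 0.14 and 0.36.

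RPL5 carries 5S ribosomal RNA to the large subunit and can bind MDM2 when assembly fails. Its fitted values were -0.13 (SE 0.11) in vitrified and 0.07 (SE 0.11) in frozen embryos, and its difference of -0.20 between the treatments was the lowest of the 21 genes. Its arrays gave 0.16, -0.49 and 0.26 after vitrification and 0.61, -0.22 and 0.15 after freezing, so the groups overlapped. RPLP1, an acidic protein of the stalk that recruits elongation factors, stood at 0.12 and 0.02. RPL4, which lines the exit tunnel, stood at -0.08 in both treatments, and RPL23, on the face that meets the small subunit, at -0.12 and -0.06. RPL7 gave 0.18 and 0.04, and a dimmer probe of the same gene gave 0.004 and -0.007. RPL26L1, a copy of RPL26, gave 0.14 and -0.07.

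RSL24D1 sits on the large subunit precursor and gives up its place to RPL24 late in assembly. Its frozen ratios were -0.31, -0.30 and -0.32, nearly the same on each array, while its vitrified ratios were -0.27, -0.20 and 0.01. It was the only one of the 21 genes below 0 on all 3 frozen arrays, where 14.7% of tested probes were. On this probe every vitrified ratio lay above every frozen one, but that did not hold on all of its 5 probes. On the log2 intensity scale the frozen extracts read 12.41, 12.62 and 12.73 beside untreated extracts at 12.72, 12.91 and 13.06 on the same arrays. The fitted values were -0.31 (SE 0.10, n = 3, limma adjusted p 0.239) in frozen and -0.16 (SE 0.10, limma adjusted p 0.434) in vitrified embryos. Its 5 probes, whose starts lie within 10 bases of each other, read nearly the same stretch of RNA. Their fitted values ran from -0.32 to -0.28 in frozen embryos. Single arrays varied more, and the dimmest probe gave -0.37, -0.14 and -0.48 on the frozen arrays. On the vitrified arrays that probe gave -0.30, -0.09 and -0.06, so the groups overlapped. RPL7L1, the other assembly factor, gave 0.03 in frozen and -0.11 in vitrified embryos. Its frozen arrays ran from -0.19 to 0.58.

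**Figure D2:**
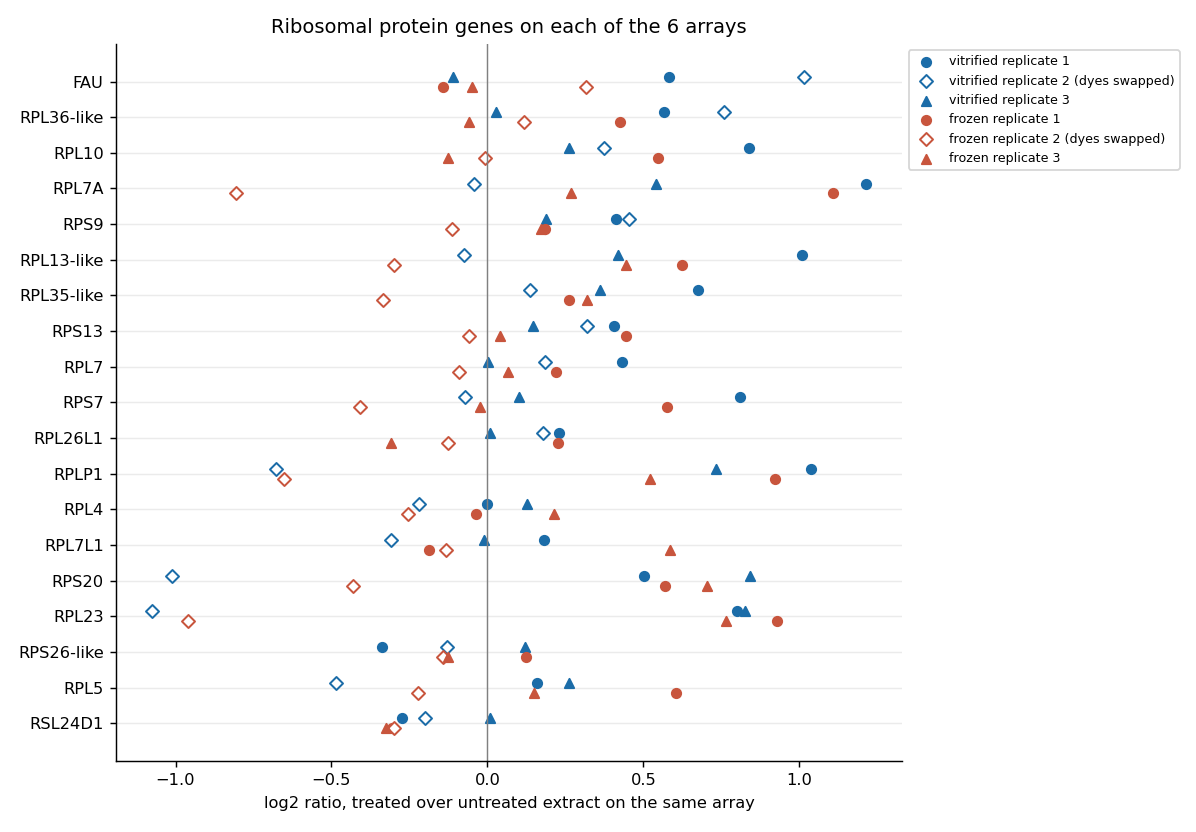
Log2 ratio of treated over untreated RNA on each of the 6 arrays (x axis) for 19 of the 21 ribosomal protein genes (rows, ordered by the fitted vitrified value), with vitrified arrays in blue, frozen arrays in red and open diamonds for the arrays with swapped dyes. The open diamonds of RPL23, RPLP1 and RPS20 lie far left of their other points, and the frozen points of RSL24D1 lie together near -0.31.

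By array, 9 of the 21 genes lay above 0 on all 3 vitrified arrays, where 20.4% of tested probes did. RPL10, RPL26L1, RPL35-like, RPL36-like, RPL7, RPS13 and RPS9 were among them. On vitrified replicate 3, RPL7, RPL26L1 and RPL36-like stood at only 0.0026, 0.0085 and 0.03. Other probes of RPL7, RPL26L1 and RPL10 fell below 0 on a vitrified array, so the count depends on the probe chosen. None of the 21 lay above 0 on all 3 frozen arrays, where 15.7% of tested probes did. RPS9 and RSL24D1 had every vitrified ratio above every frozen one, a pattern of 5.75% of tested probes. Not every probe of either gene showed it. Summed up by array, the median of the 21 genes was 0.50 on vitrified replicate 1, -0.04 on replicate 2 and 0.15 on replicate 3. The frozen medians were 0.40, -0.18 and 0.12 in the same order. Replicate 1 was thus the highest in both treatments and replicate 2, with the dyes swapped, the lowest. Vitrified replicate 1 and frozen replicates 1 and 2 lay on 1 slide and the other arrays on the second. Replicates 1 (0.50 and 0.40) and replicates 3 (0.15 and 0.12) thus compare the treatments within a slide and dye. With slide as a covariate 0 of 21 genes were called by limma in any comparison, and the medians were 0.21 in vitrified embryos, 0.03 in frozen ones and 0.21 for the difference.

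Bright probes as a class lay above 0 where the treated RNA was in Cy5 and below 0 on the replicate 2 arrays, where it was in Cy3. The 363 tested probes at least as bright as the median ribosomal protein gene had medians of 0.46, -0.41 and 0.39 on the vitrified arrays and 0.47, -0.30 and 0.49 on the frozen ones, while the medians over all tested probes stayed between -0.03 and 0.04. Of the 21 genes, those below the median are dimmer than all of these probes. After the fit, which removes the dye term, the 363 probes had medians of -0.01 in vitrified and 0.06 in frozen embryos.

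**Figure D3:**
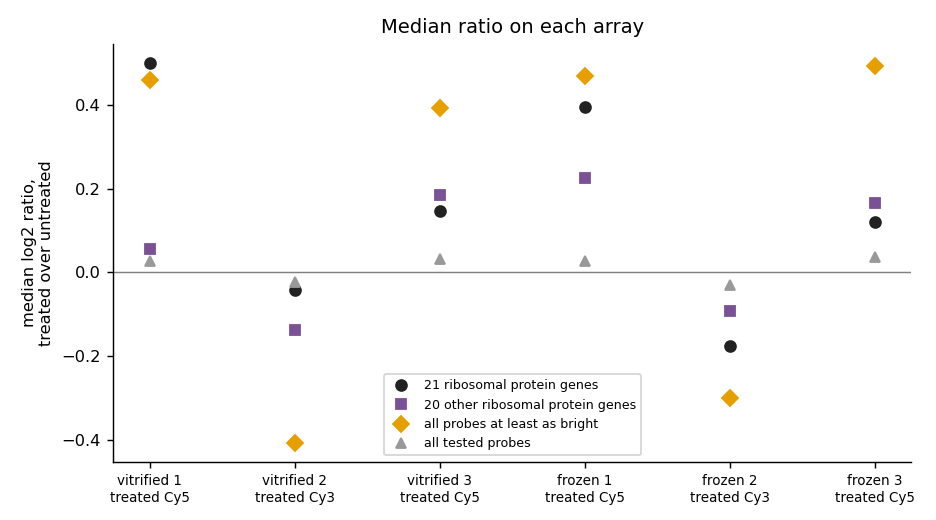
Median log2 ratio of treated over untreated RNA (y axis) on each array (x axis, with the dye of the treated RNA) for the 21 ribosomal protein genes, for 20 other ribosomal protein genes, for all tested probes at least as bright as the median of the 21, and for all tested probes. Both arrays with the treated RNA in Cy3 lie below 0 in every set, and the bright probes move furthest, from -0.41 to 0.49.

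The dye term of the fit, the log2 excess of red over green regardless of treatment, was the one coefficient in which some of the 21 genes passed the test. limma called 3 of 21 genes above 0 at an adjusted p of 0.05, where 1.54% of all tested probes were called in that direction. They were RPL23 at 0.92 (SE 0.07, adjusted p 0.006), RPLP1 at 0.73 (SE 0.09, adjusted p 0.014) and RPS20 at 0.69 (SE 0.09, adjusted p 0.020). Over the 21 genes the dye term had a median of 0.14 with 18 above 0, against 0.02 and 56.8% for all tested probes and 0.40 for the 363 bright ones. Both swapped arrays are replicate 2, so a dye effect and a feature of replicate 2's extracts cannot be told apart. How many of the 21 were called depended on the scaling. All 21 were called with median centring in place of loess and 1 with the scanner software's own log ratio.

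RPL23 is the clearest single case. Its ratios were 0.80, -1.08 and 0.83 on the vitrified arrays and 0.93, -0.96 and 0.77 on the frozen ones. Within each replicate number the treatments lay close together, while replicate 2 had the opposite sign to the others in both. With no dye term the vitrified value turned from -0.12 to 0.18 and the frozen one from -0.06 to 0.24. Its values also differed by probe position. The 3 probes at the stop codon, starting at bases 384 to 386 of the transcript, had dye terms of 0.78 to 0.97, and all 3 were called. The 7 coding probes, starting at bases 312 to 316, had dye terms of 0.30 to 0.45, and 0 were called. In vitrified embryos the same probes fitted at -0.15 to -0.12 and at 0.10 to 0.15, so the sign of its vitrified value differed between the 2 places. RPS20 had a similar array pattern, with 0.50, -1.01 and 0.84 after vitrification and 0.57, -0.43 and 0.70 after freezing.

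**Figure D4:**
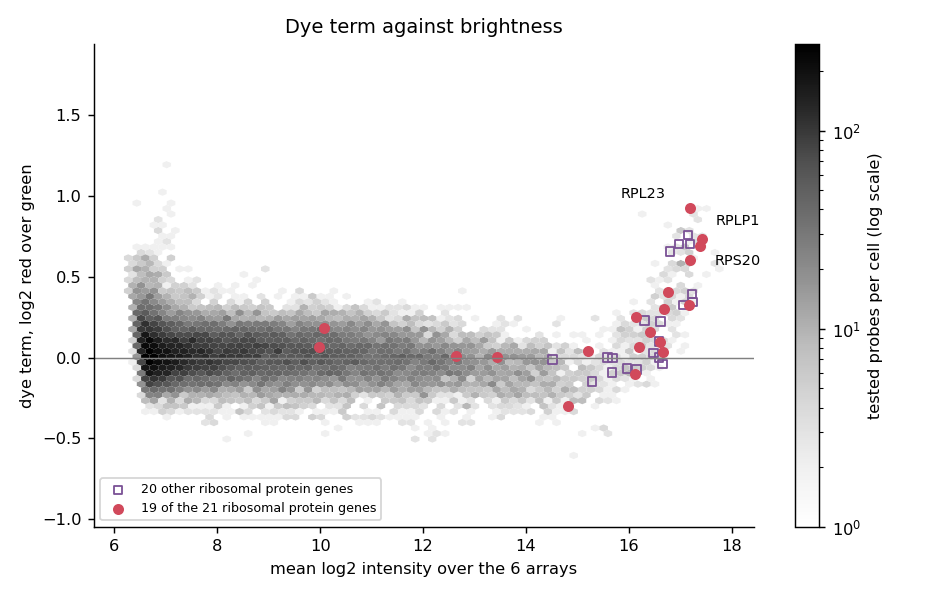
Dye term of the fit (y axis, log2 red over green) against mean log2 intensity over the 6 arrays (x axis), with all 30759 tested probes as grey cells, 19 of the 21 ribosomal protein genes as filled circles and 20 other ribosomal protein genes as open squares. Most of these lie at the bright end, where the grey cells turn upward, and RPL23, RPLP1 and RPS20 lie highest.

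A further 20 ribosomal protein genes were found on the array through their accessions, although their descriptions lack the words of the rule. limma called 0 of 20 in each at an adjusted p of 0.05, and 4 of 20 in vitrified and 1 of 20 in frozen embryos had an unadjusted p under 0.05, where the shares of all tested probes were 17.4% and 13.2%. Their median was -0.05 in vitrified embryos with 9 of 20 above 0, and 0.05 in frozen embryos with 13 of 20 above 0. A lean above 0 in vitrified embryos was not seen in this second set. The range in vitrified embryos ran from RPL24 at -0.53, the protein that takes the place of RSL24D1, to RPS16 at 0.54. RPL24 gave -0.01, -1.47 and 0.60 on the vitrified arrays, with replicate 2 far below the others. RPS16 gave 0.76, 0.74 and 0.12 there, and 0.36, -0.10 and -0.04 on the frozen arrays. RPL26, of which RPL26L1 is a copy, stood at -0.27 in vitrified embryos.

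Among the 21 genes the base composition of the probes moved with the fitted values, and it did so less or not at all in wider sets. Across the 21 genes the share of G and C in the probe and the vitrified log2 fold change had a Pearson's r of 0.61 and a Spearman's rho of 0.58, and with the frozen log2 fold change r was 0.40 and rho 0.49. Across the 20 other genes r was 0.31 for vitrified and -0.01 for frozen values, and over all tested probes it was 0.16 and 0.03. These correlations are across genes that share the same 6 arrays, and genes are not independent replicates. Per array, r over the 21 genes was 0.42, 0.46 and -0.02 in the vitrified embryos and 0.19, 0.10 and -0.05 in the frozen ones. The FAU and RPL36-like probes hold 56.7% and 55.0% G and C, and the RSL24D1 probe holds 43.3%. The RPL10 and RPS16 probes, with vitrified values of 0.46 and 0.54, hold 45.0% each. The part of base composition in the result was not tested.

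**Figure D5:**
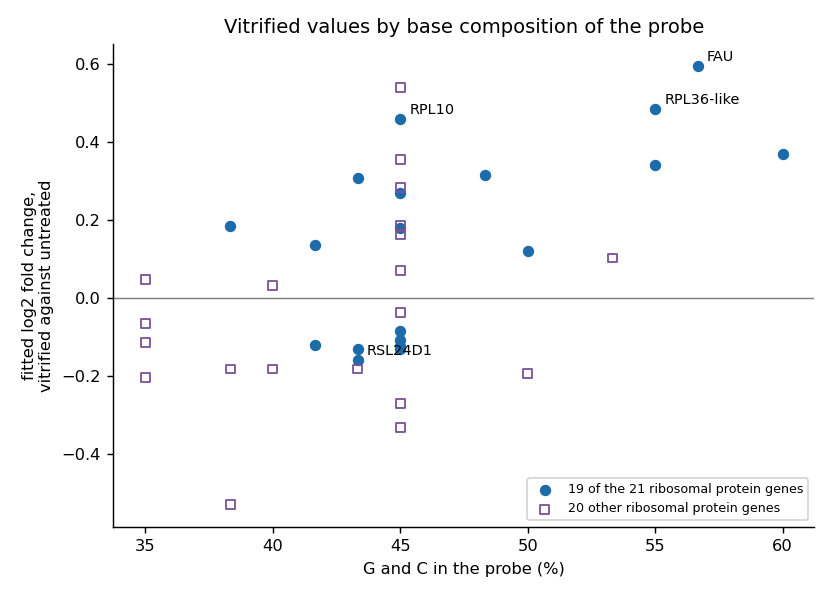
Fitted log2 fold change of vitrified against untreated embryos (y axis) by the percentage of G and C in the 60-base probe (x axis) for 19 of the 21 ribosomal protein genes (filled circles) and the 20 other ribosomal protein genes (open squares). FAU at 0.59 and RPL36-like at 0.48 lie among the probes richest in G and C.

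Around the ribosomal proteins, other parts of the pathway also had no calls, by limma's test over all probes. The counts at an unadjusted p under 0.05 that follow stand against 17.4% of all tested probes in vitrified and 13.2% in frozen embryos. Of 21 listed terminal oligopyrimidine mRNAs that are not ribosomal proteins 13 were measured. limma called 0 in either treatment, with 5 in vitrified and 2 in frozen embryos at an unadjusted p under 0.05 and medians of 0.05 in each. PABPC1, the poly(A) binding protein, had the highest vitrified value at 0.63. EIF4A2, a helicase of translation initiation, had the lowest at -1.12 in vitrified and -0.57 in frozen embryos. The translation elongation factor subunit EEF1B2 stood at -0.45 in vitrified embryos. Of 76 ribosome assembly genes 57 were measured, with 0 called by limma and 10 and 4 at an unadjusted p under 0.05. These 57 include RSL24D1, 1 of the 21 genes described above, which is also among the 4 in frozen embryos. The medians of the 57 were 0.04 in vitrified and 0.01 in frozen embryos, with 35 and 33 of them above 0. The highest in vitrified embryos was PES1, of the PeBoW complex of 60S assembly, at 0.71, followed by RRP9, a U3 particle protein, also at 0.71. The lowest was NOC3L at -0.43. In frozen embryos the range ran from NAT10, which acetylates ribosomal RNA, at -0.41 to SBDS, which frees the joining face of the 60S subunit, at 0.35.

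RNA polymerase I makes the large ribosomal RNA precursor, and 9 of 15 listed genes of it and its factors were measured. limma called 0, with 0 and 1 at an unadjusted p under 0.05, and the medians were -0.07 in vitrified and -0.10 in frozen embryos, with the initiation factor RRN3 lowest in frozen embryos at -0.26. Of 19 genes that set the rate of ribosome synthesis 12 were measured, with 0 called by limma, 2 in each treatment at an unadjusted p under 0.05, and medians of 0.01 and 0.05. The transcription factor MYC was highest in both, at 0.33 in vitrified and 0.55 in frozen embryos, and the kinase MTOR was lowest in vitrified embryos at -0.33. The ribosomal stress response, in which free RPL5 holds back MDM2 and p53 accumulates, was read by 7 of 12 genes, with 0 called by limma and 2 and 1 at an unadjusted p under 0.05. CDKN1A, the p53 target that stops the cell cycle, stood at 0.63 in vitrified and 0.17 in frozen embryos. MDM4 stood at -0.60 and -0.46, with frozen arrays at 0.56, -0.94 and -0.76. BAX stood at -0.06 and -0.59, and GADD45A at -0.18 and 0.34. The medians of the 7 genes were 0.02 in vitrified and 0.10 in frozen embryos.

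Among markers of other cells, some blood and uterine genes had high values, although limma called 0 of 3 blood genes and 0 of 3 uterine genes in either treatment. At an unadjusted p under 0.05 there were 3 and 2 blood genes and 2 and 1 uterine genes in vitrified and frozen embryos. The blood genes, HBB2, HBA and ALAS2, had fitted values of 3.61, 2.33 and 0.75 in vitrified embryos and 1.92, 1.03 and 0.28 in frozen ones. Replicates differed widely. HBB2 gave 1.78, 4.61 and 4.29 on the vitrified arrays and 3.60, 1.25 and 0.76 on the frozen ones, so frozen replicate 1 stood above vitrified replicate 1. The summed log2 level of the blood genes ran from 13.87 to 17.32 in vitrified, from 12.06 to 15.30 in frozen and from 11.40 to 13.49 in untreated extracts, while the leukocyte marker PTPRC was above background on no array. Of the 3 tested uterine genes, SCGB1A1 stood at 2.03 and 1.51, WFDC2 at 1.08 and 0.32 and PGR at 0.06 and 0.01, with summed log2 levels of 11.95 to 12.78 in vitrified, 10.50 to 12.02 in frozen and 10.46 to 11.72 in untreated extracts. Endoderm markers had a median of -0.07 in vitrified and -0.91 in frozen embryos, where 1 of 8, APOA2, was lower, at -1.0 with an adjusted p of 0.042 from limma. At an unadjusted p under 0.05 there were 0 of 8 and 6 of 8. Vitrified replicate 1 stood apart here, with APOA1 at -1.45, 0.33 and 0.61 on the vitrified arrays and -1.38, -1.09 and -1.14 on the frozen ones. Summed log2 levels of the endoderm list ran from 12.91 to 13.77, from 12.15 to 12.70 and from 13.09 to 13.93 in vitrified, frozen and untreated extracts. Trophectoderm markers had medians of 0.29 in vitrified and 0.30 in frozen embryos, with 7 of 8 above 0 in each, 0 called by limma, and 3 and 4 of 8 at an unadjusted p under 0.05. Inner cell mass markers had medians near 0 in vitrified embryos and of -0.29 in frozen ones, where POU5F1 stood at -0.82 and OTX2 at -0.51. limma called 0 of 5 of them in each, with 0 and 3 at an unadjusted p under 0.05. Summed log2 levels in vitrified, frozen and untreated extracts ran from 15.50 to 15.75, from 15.25 to 15.40 and from 14.98 to 15.65 for trophectoderm. For the inner cell mass they ran from 14.44 to 14.81, from 14.16 to 14.27 and from 14.27 to 14.93. The part of these cells in the ribosomal protein values was not tested.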

How the data were processed

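RNA of 6 pairs of treated and untreated blastocyst extracts was measured on 6 two-colour arrays on 2 slides of 3. The intensity values, per the file headers, are each spot's mean signal and median local background in both channels as deposited, from Agilent Feature Extraction 10.10.1.1 (version per the submitters' processing notes). That software's log10 red over green ratio, already background-subtracted and dye-normalised per the file headers, served as an alternative.

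With limma 3.58.1 under R 4.3.3, normexp (offset 50) corrected the background. Loess within each array gave control and outlier spots weight 0, and 7 to 20 outlier spots an array were left out. Repeated spots were averaged. The fit over all arrays held vitrified, frozen and dye coefficients, with 3 residual degrees of freedom before eBayes. Benjamini-Hochberg adjustment ran over all 30759 tested probes, with calls at 0.05, and each unadjusted p is from the same fit. The number of arrays limits the precision.

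Names came from the files' accessions and descriptions and a RefSeq gene table of assembly mOryCun1.1. There 15 of the 21 genes had a symbol, 3 a gene number alone and 3 no match. A "-like" in a name is the files' wording and was kept only for genes without a symbol. The files also describe RPL4, RPL7, RPL7A, RPLP1, RPS7 and RPS13 as "-like". Of 11 genes with more than 1 probe, 7 had all probe starts within 10 bases. Near-identical copies of these genes were not separated.

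The genes and lists were chosen with earlier results of these data known. Named genes are those past the test, up to 6 at either end of each comparison, a set fixed by role, and list members at either end of their list. Others were named after their values were seen. For 2 of the 21 genes, values are not reported here, though they enter the counts and medians. A replicate number marks a shared untreated extract in the labels, which is where the pairing of vitrified and frozen arrays comes from. Paired arrays deviated from their group means with correlations of 0.02, 0.59 and 0.17 in replicates 1 to 3, and both replicate 2 arrays have swapped dyes. The labels call the replicates biological without naming their sources. The test was checked on simulated data. Alternatives covered the background, normalisation, filter, dye, block, slide, spread and probe choices and each array left out, and a set without the 2 assembly factors was added after the data were seen.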

Additional observations from a re-analysis of the deposited data

How the results depend on the processing

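The count of ribosomal protein genes called stayed at 0 of 21 in all 3 comparisons under every alternative run. The median of the 21 genes in vitrified embryos stayed above 0 in each. The median in frozen embryos, 0.04, turned to -0.01 with the scanner software's log ratio and to -0.03 without frozen replicate 1. The median difference between vitrified and frozen embryos, 0.15, was 0.056 with median centring in place of loess. It ranged from 0.078 (without vitrified replicate 1) to 0.28 (without vitrified replicate 3) when single arrays were left out. The vitrified median ranged from 0.09 (without vitrified replicate 1) to 0.31 (without vitrified replicate 3). With replicates as a random block (correlation -0.10), or as a fixed block in the direct comparison, 0 of 21 genes were called and the median difference was 0.15 in both. Over single genes, 4 of 376 recomputed vitrified values changed sign, 27 of 376 frozen ones and 15 of 397 differences. The count over all tested probes moved more, from 0 to 16 in vitrified and from 0 to 513 (without vitrified replicate 1) in frozen embryos. It was 0 in both with slide as a covariate. With 3 arrays a treatment, changes near 0.5 on the log2 scale were mostly beyond the test's reach.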
